A study of Mus musculus with 14 samples.

Results

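The mitochondrial ribosomal protein genes were taken as every named entry of the count table whose symbol begins with Mrps or Mrpl followed by a number. There were 78 of them among 22116 named genes: 29 Mrps genes, named for the small subunit, and 49 Mrpl genes, named for the large subunit. The spleens of 14 female BALB/c wild-type mice, 6 to 8 weeks old and kept free of specific pathogens, had been collected in a study that set psoriasis-like skin models side by side. Messenger RNA selected by its poly(A) tail was sequenced, and each mouse gave 1 library. All 14 libraries carry the same batch label.

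Imiquimod-dorsal mice (n = 4) had received 5% imiquimod cream on the back once daily for 5 days, and imiquimod-ear mice (n = 4) the same cream on the ear for 5 days. Imiquimod is an agonist of Toll-like receptor 7. IL-23-ear mice (n = 3) had received IL-23, a cytokine that maintains T cells of the type 17 class, as intradermal injections of 1 µg per ear every other day, 4 injections over 7 days. Control mice (n = 3) had petrolatum, the vehicle, on back and ears; the series' design text calls them untreated, and a group injected with vehicle was not analysed here. The groups were thus treated by different routes and for different lengths of time. The labels call the mice biological replicates, so the p-values below measure the spread between these mice.

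Mitochondria carry their own ribosome, the mitoribosome, which makes the few proteins encoded by mitochondrial DNA, all of them parts of the respiratory chain and of ATP synthase. Its RNAs are transcribed in the mitochondrion, whereas every one of its proteins is encoded in the nucleus, made in the cytosol and imported. The small subunit binds the messenger RNA and decodes it, and the large subunit joins amino acids and holds the exit tunnel. Some of its proteins have counterparts in all ribosomes (universal), some only in bacterial ribosomes (bacterial), and some only in mitochondria (mitochondrion-specific). In the spleen, dividing lymphocytes, erythroid precursors and myeloid precursors are among the cells known to build mitochondria actively.

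The symbols do not follow the place of the protein in every case. By place in the mammalian mitoribosome, 26 of the 78 belong to the small and 51 to the large subunit. Mrps30 and Mrps18a, despite their symbols, sit in the large subunit, where their uniform names are mL65 and mL66. Mrps36 is a subunit of the 2-oxoglutarate dehydrogenase complex and not of the mitoribosome. Counts and sums for the Mrps and Mrpl genes go by symbol, and those for a subunit by place. The genes lie on 17 chromosomes. In 42 of them at least 1 exon base is shared with another annotated gene, which non-stranded reads cannot separate, and in 36 none is. Among genes named below, 537 bases are shared in Mrpl34 (with Gm64263), 852 in Mrpl10 (Gm11574) and 3536 in Mrps25 (Nr2c2). Likewise 638 are shared in Mrps18b (Gm16279), 651 in Mrps30 (B430218F22Rik), 568 in Mrps14 (Cacybp) and 404 in Mrps6 (Slc5a3). All 78 passed the filter on low counts, with 305 to 3755 counts per gene and library.

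Library totals over named genes were 35024011 to 40289411 counts in imiquimod-dorsal, 34551193 to 37402120 in imiquimod-ear, 33888595 to 35456180 in IL-23-ear and 28354674 to 35086665 in control libraries. TMM factors, which correct library sizes for the share taken by highly expressed genes, were 0.8346 to 0.9024 in imiquimod-dorsal and 1.0992 to 1.1023 in control libraries. The summed level of 12 erythroid markers was 10458 to 16832 CPM (TMM-scaled counts relative to library size) in imiquimod-dorsal, 516 to 3345 in imiquimod-ear, 170 to 706 in IL-23-ear and 806 to 964 in control libraries. For 12 cell cycle genes the sums were 5977 to 7805, 1255 to 3203, 742 to 1010 and 700 to 1308 CPM in the same group order. Imiquimod-ear 5 had the lowest and control 5 the highest cell cycle sum of its own group. In bulk samples, fewer cells of a type and less RNA per cell cannot be told apart. B cell markers summed to 3241 to 3919, 3719 to 4120, 4300 to 4660 and 4377 to 4580 CPM in the same group order, so all 14 libraries carried them.

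The Mrps and the Mrpl genes were both highest in imiquimod-dorsal spleens, with lower group means in imiquimod-ear, then IL-23-ear and then control spleens. The Mrps genes together had 1098, 1192, 1182 and 1171 CPM in imiquimod-dorsal, 1024, 1086, 1003 and 867 CPM in imiquimod-ear, 851, 897 and 905 CPM in IL-23-ear, and 721, 762 and 877 CPM in control libraries. The Mrpl genes together had 2071, 2318, 2298 and 2258 CPM in imiquimod-dorsal, 1970, 2054, 1949 and 1587 CPM in imiquimod-ear, 1537, 1695 and 1680 CPM in IL-23-ear, and 1312, 1403 and 1623 CPM in control libraries. Every imiquimod-dorsal library lay above every other library in both sums. Imiquimod-ear 5 lay within the range of the IL-23-ear libraries for both sets, and below control 5 for both. Control 5 lay above IL-23-ear 1. Against the control mean, the sum over all 78 genes was 1.52-fold in imiquimod-dorsal, 1.29-fold in imiquimod-ear and 1.13-fold in IL-23-ear spleens. As a share of all counts, without the TMM factors, the 78 genes took 0.296% ± 0.0144 in imiquimod-dorsal, 0.295% ± 0.0210 in imiquimod-ear, 0.266% ± 0.00730 in IL-23-ear and 0.246% ± 0.0266 in control spleens (SD, n = 4, 4, 3 and 3). On that unscaled basis the imiquimod groups thus had nearly equal shares, and their ranges of 0.277% to 0.309% and 0.267% to 0.316% overlapped.

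**Figure D1:**
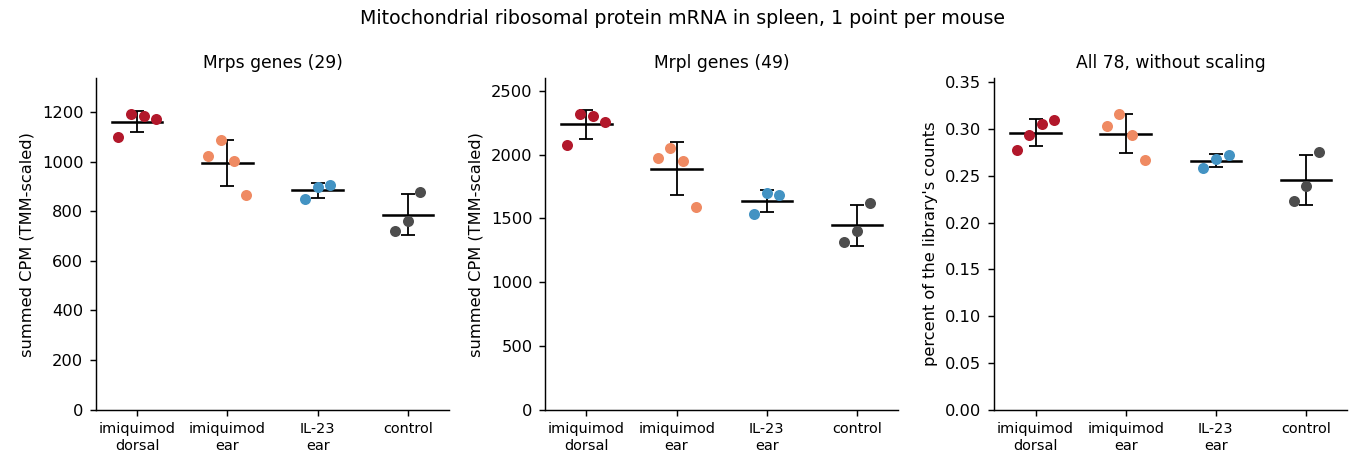
Summed TMM-scaled CPM of the 29 Mrps genes (left) and the 49 Mrpl genes (middle) and the unscaled percent of counts of all 78 (right), by group, with 1 point per library and the group mean ± SD. The imiquimod-dorsal libraries lie between 1098 and 1192 CPM for the Mrps and between 2071 and 2318 CPM for the Mrpl genes, above all others, but overlap imiquimod-ear in the unscaled share.

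In imiquimod-dorsal against control spleens, 71 of the 78 genes rose and none fell. Over all 15159 genes tested, 32.3% rose and 27.6% fell in this comparison. Of the Mrps genes 25 of 29 rose, and of the Mrpl genes 46 of 49. By place, 22 of 26 small-subunit and 48 of 51 large-subunit genes rose, with median log2 fold changes of 0.52 and 0.60. The median was 0.60 over the 78 genes, 0.53 for the Mrps and 0.63 for the Mrpl genes, against -0.00 over all genes. The changes were of moderate size: 9 of the 78 were at least 2-fold higher, while 22.3% of all genes moved that far in either direction. In 67 of the 78, every imiquimod-dorsal library lay above every control library, as in 33.0% of all genes. The 7 genes that did not pass were Mrps6, Mrps25, Mrps27, Mrps35, Mrpl10, Mrpl24 and Mrpl30. Of the 36 genes that share no exon base with another gene, 34 rose, with a median of 0.56.

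Scaling carries part of this count. With library totals in place of TMM, 43 of the 78 rose and 2 fell, and with upper-quartile scaling 1 fell. Those scalings moved the median of all genes to -0.33 and -0.23, with 2748 genes higher and 7242 lower, and 3346 higher and 6302 lower, against 4890 and 4181 with TMM. Measured against the median of all genes, the 78 stood 0.59 higher with library totals, 0.60 with upper-quartile scaling and 0.60 with TMM. Scaling shifts all genes of a library alike, so this difference is nearly fixed and cannot test the choice of scaling. Of the genes named below, Mrps2, Mrps12, Mrps18a, Mrps18b, Mrpl11 and Mrpl58 did not pass with library totals.

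Among the large-subunit genes, Mrpl18 rose most; its protein (uL18m) is a universal protein of the central protuberance, the crown of the large subunit. Mrpl18 (chr17:13130034-13135718, minus strand, GRCm39) was at 98.3, 120, 115 and 104 CPM in imiquimod-dorsal, 84.4, 94.7, 77.0 and 56.0 CPM in imiquimod-ear, 49.5, 54.8 and 57.2 CPM in IL-23-ear, and 42.0, 42.6 and 56.8 CPM in control libraries. Its imiquimod-dorsal libraries lay above all others, while imiquimod-ear 5 fell just below control 5. The log2 fold change of imiquimod-dorsal against control was 1.22 ± 0.16 (SE; adjusted p = 2.39e-05). An exon of Tcp1, which encodes a subunit of the cytosolic chaperonin and rose with a log2 fold change of 0.78, overlaps it by 301 bases on the other strand.

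Mrpl20, whose protein (bL20m) is the counterpart of a bacterial protein needed early in large-subunit assembly, was the next. Mrpl20 (chr4:155887335-155894435, plus strand) was at 52.6, 67.0, 64.1 and 65.4 CPM in imiquimod-dorsal, 42.8, 48.2, 45.0 and 31.5 CPM in imiquimod-ear, 28.6, 33.1 and 29.6 CPM in IL-23-ear, and 23.9, 25.9 and 31.0 CPM in control libraries. Both imiquimod groups lay above the controls without overlap, imiquimod-ear 5 narrowly, and IL-23-ear overlapped the controls. Its log2 fold change was 1.21 ± 0.14 (adjusted p = 9.17e-06), and no other gene shares its exons. Mrpl28, encoding the counterpart of a bacterial large-subunit protein, averaged 68.6 ± 3.02 CPM in imiquimod-dorsal and 31.2 ± 4.50 CPM in control spleens (SD, n = 4 and 3), a log2 fold change of 1.14 ± 0.13 (adjusted p = 6.74e-06). Mrpl53, encoding a mitochondrion-specific protein, averaged 33.3 ± 1.59 CPM in imiquimod-dorsal and 15.2 ± 2.76 CPM in control spleens, a log2 fold change of 1.13 ± 0.13 (adjusted p = 6.55e-06). Mrpl34, again with a bacterial counterpart, averaged 38.5 ± 4.28 CPM in imiquimod-dorsal and 18.5 ± 2.73 CPM in control spleens (log2 fold change 1.06 ± 0.15, adjusted p = 4.18e-05). None of these 3 overlapped between the imiquimod-dorsal and control libraries.

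Of the genes named for the small subunit, Mrps36 rose most, the one whose product belongs to the 2-oxoglutarate dehydrogenase complex of the citric acid cycle. It was at 38.9, 38.5, 33.0 and 35.6 CPM in imiquimod-dorsal, 25.1, 24.8, 24.8 and 17.7 CPM in imiquimod-ear, 19.2, 21.5 and 18.9 CPM in IL-23-ear, and 15.3, 16.8 and 19.1 CPM in control libraries. Every imiquimod-dorsal library exceeded all others by a wide gap, and the log2 fold change was 1.10 ± 0.13 (adjusted p = 8.46e-06). The largest rise among true small-subunit proteins was that of Mrps18c, which encodes bS18m, the protein at the site of the bacterial counterpart. Mrps18c (chr5:100946493-100955417, plus strand) was at 48.0, 54.7, 50.8 and 52.9 CPM in imiquimod-dorsal, 34.4, 35.7, 34.0 and 26.9 CPM in imiquimod-ear, 31.7, 33.6 and 31.1 CPM in IL-23-ear, and 23.9, 24.6 and 27.7 CPM in control libraries. The imiquimod-dorsal libraries stood apart (log2 fold change 1.02 ± 0.10, adjusted p = 2.24e-06), and the IL-23-ear libraries also lay above every control. Exons of Abraxas1 cover 2388 of its exon bases on the other strand, so part of its count may belong there.

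Mrps22, a mitochondrion-specific small-subunit gene whose loss of function causes mitochondrial disease in humans, averaged 30.4 ± 4.49 CPM in imiquimod-dorsal and 15.2 ± 2.99 CPM in control spleens (SD, n = 4 and 3; log2 fold change 1.00 ± 0.17, adjusted p = 1.65e-04). Mrps11, encoding a universal protein of the small subunit's platform, averaged 30.5 ± 1.81 CPM in imiquimod-dorsal and 16.0 ± 1.11 CPM in control spleens (0.93 ± 0.11 on the log2 scale, adjusted p = 9.98e-06). Mrps28, named bS1m for its relation to a bacterial protein, averaged 31.6 ± 1.88 CPM in imiquimod-dorsal and 16.8 ± 2.53 CPM in control spleens (0.91 ± 0.15 on the log2 scale, adjusted p = 1.81e-04). Their imiquimod-dorsal and control libraries did not overlap.

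**Figure D2:**
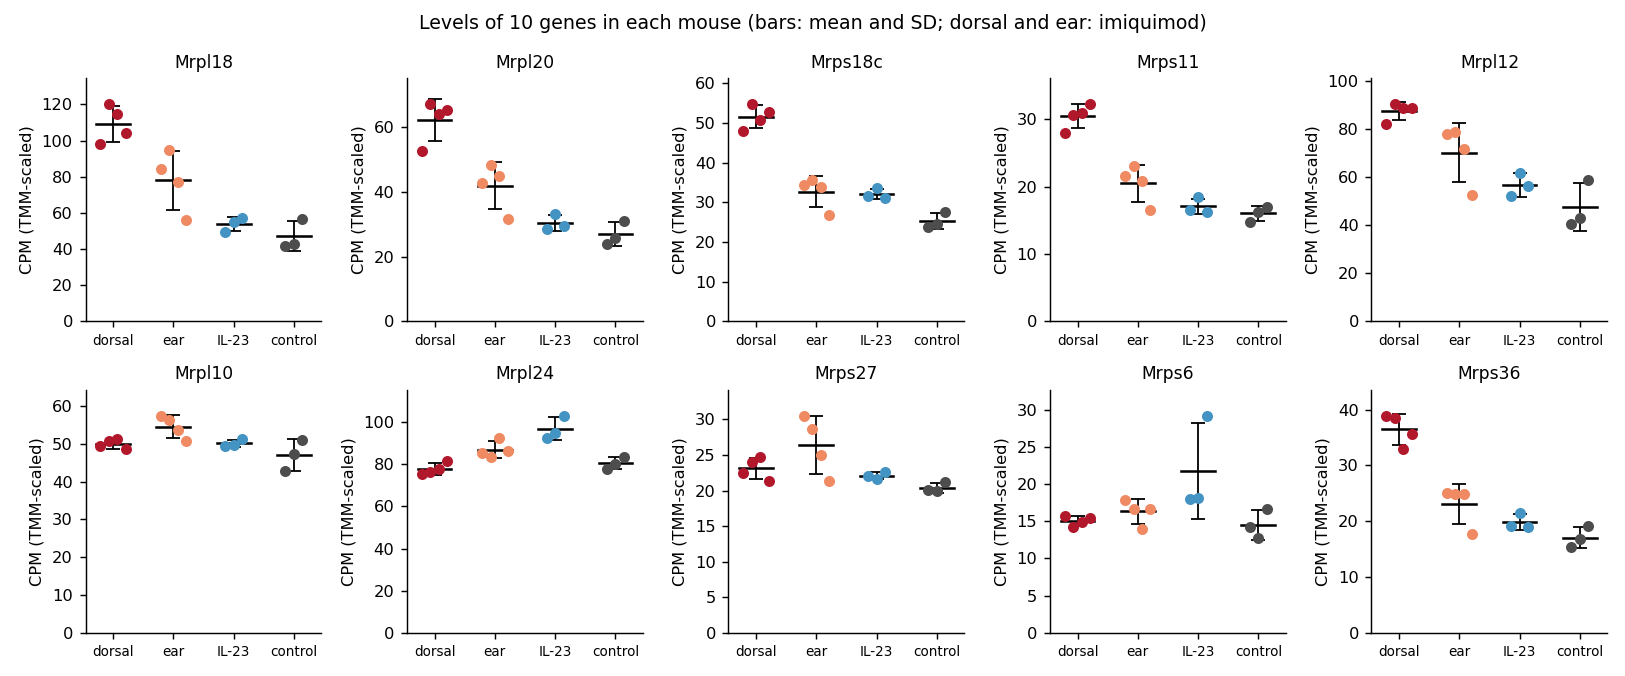
TMM-scaled CPM of 10 genes by group, with 1 point per library and the group mean ± SD. Genes with large rises, such as Mrpl18 and Mrpl20, separate imiquimod-dorsal from control libraries, whereas Mrpl10 and Mrpl24 overlap.

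Of the factor-binding stalk, the flexible arm of the large subunit that recruits translation factors, Mrpl12 and Mrpl11 passed the test in imiquimod-dorsal spleens and Mrpl10 did not; the differences between these genes were not tested. Mrpl12 (bL12m), the repeated protein of the stalk, averaged higher in imiquimod-dorsal than in control spleens by a log2 fold change of 0.88 ± 0.15 (adjusted p = 1.57e-04), with 82.0, 90.2, 88.9 and 88.9 CPM in imiquimod-dorsal and 40.4, 43.1 and 58.9 CPM in control libraries. Mrpl11 (uL11m), at the base of the stalk, rose by less, 0.44 ± 0.12 (adjusted p = 0.00448); with library totals or upper-quartile scaling it did not pass (adjusted p = 0.403 and 0.0890). Mrpl10 (uL10m), which anchors Mrpl12, was at 49.3, 50.8, 51.3 and 48.5 CPM in imiquimod-dorsal, 57.4, 56.3, 53.7 and 50.8 CPM in imiquimod-ear, 49.5, 49.6 and 51.2 CPM in IL-23-ear, and 42.7, 47.4 and 51.0 CPM in control libraries. Control 5 lay within the imiquimod-dorsal range, and the log2 fold change of 0.09 ± 0.07 did not pass (adjusted p = 0.279). Its sign depended on the setting: the value was -0.14 with upper-quartile scaling, -0.25 with library totals (adjusted p = 0.00466), -0.02 with the gene length trend removed and -0.03 without control 2.

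Mrpl24, encoding a universal protein near the exit of the tunnel, was at 75.3, 76.2, 77.9 and 81.5 CPM in imiquimod-dorsal, 85.5, 83.5, 92.7 and 86.2 CPM in imiquimod-ear, 92.7, 94.8 and 103 CPM in IL-23-ear, and 77.9, 80.3 and 83.5 CPM in control libraries. It was the one gene of the 78 with a negative log2 fold change in imiquimod-dorsal spleens, -0.05 ± 0.06 (adjusted p = 0.470). With upper-quartile scaling it passed as lower (-0.28, adjusted p = 0.00110), as it did with library totals (-0.39, adjusted p = 1.70e-04). Exons of Mettl25b cover 1019 of its exon bases. Mrps6, with a bacterial counterpart (bS6m), was at 15.7, 14.2, 14.9 and 15.4 CPM in imiquimod-dorsal and 14.2, 12.7 and 16.6 CPM in control libraries. Its libraries overlapped, with a log2 fold change of 0.05 ± 0.16 (adjusted p = 0.799) whose sign turned with scaling. Mrps27, a small-subunit protein with pentatricopeptide repeats, which bind RNA in related proteins, had a log2 fold change of 0.18 ± 0.11 (adjusted p = 0.159). Mrps25 had the widest spread within groups of all 78, with an SD of 0.39 on the log2 scale against a median of 0.14 over the 78 and 0.18 over all genes.

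The paralogous Mrps18 genes differed in size of change. In imiquimod-dorsal against control spleens, the log2 fold change was 0.45 ± 0.10 for Mrps18a (adjusted p = 0.00131), 0.36 ± 0.14 for Mrps18b (adjusted p = 0.0355) and 1.02 ± 0.10 for Mrps18c; the difference between these genes was not tested. Mrps18b did not pass without imiquimod-dorsal 3, 4 or 5 or control 2 or 4, where its adjusted p was 0.0540 to 0.278. Mrps30, the other large-subunit protein with a small-subunit symbol, rose by 0.57 ± 0.10 (adjusted p = 3.72e-04). Mrpl58, a peptidyl-tRNA hydrolase built into the large subunit, passed at 0.24 ± 0.09 (adjusted p = 0.0294). Its call was lost without imiquimod-dorsal 3 or 5 or control 4 or 5, where the adjusted p was 0.0556 to 0.251. Mrps18b lost its call as well with library totals (0.03), and Mrpl58 changed sign there (-0.09).

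**Figure D3:**
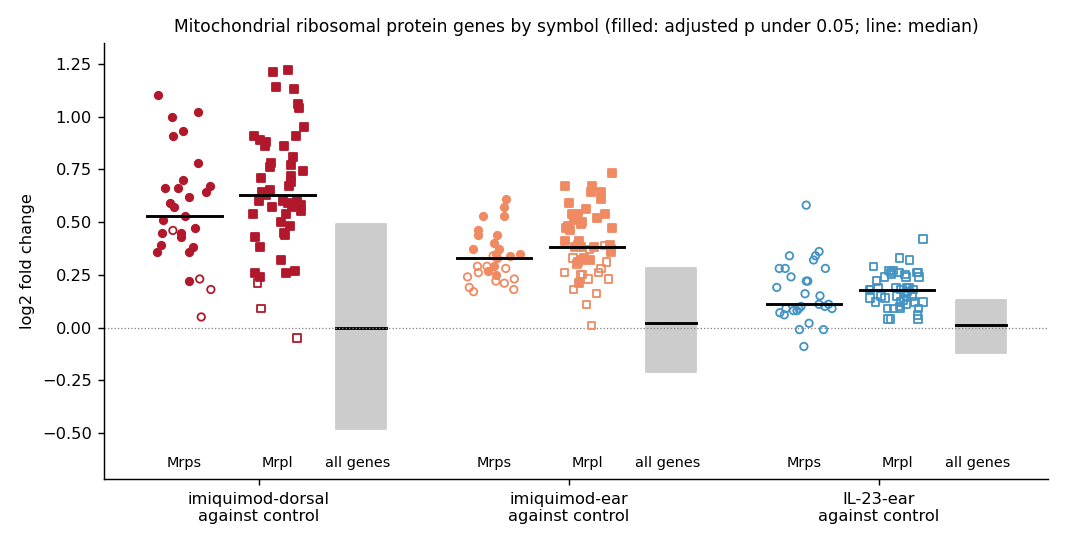
Log2 fold change against control of each of the 78 genes in the 3 treated groups, circles for Mrps and squares for Mrpl genes, filled where the adjusted p was under 0.05; lines are medians and the grey bar holds the middle quartiles of all genes. In imiquimod-dorsal spleens 71 are filled, in imiquimod-ear 50 and in IL-23-ear 0.

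Each class of ancestry had a median above that of all genes. In imiquimod-dorsal against control spleens, 24 of 27 universal genes rose with a median of 0.53 on the log2 scale, 18 of 19 bacterial-type genes with 0.67, and 28 of 31 mitochondrion-specific genes with 0.58. Within the small subunit by place, 11 of 11 universal, 4 of 5 bacterial-type and 7 of 10 mitochondrion-specific genes rose, with medians of 0.53, 0.67 and 0.37. Within the large subunit by place, 13 of 16, 14 of 14 and 21 of 21 rose in the same class order, with medians of 0.54, 0.70 and 0.60. The lower quartile of all 78 was 0.44 and the upper 0.78.

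Upstream sequence is shown for 4 of these genes because they span the range of change: Mrpl18 and Mrps18c with the largest rises of their subunits' proteins, Mrps11 because it shares its start region with Mrpl46, and Mrpl10 as a gene that did not pass. Each run is the 250 bases before the annotated start, 5′ to 3′ on the gene's strand, from RefSeq (GRCm38.p6, a build other than that of the counts). Capitals mark, on either strand, CCGGAA (the core bound by ETS factors such as GABP), GCATGCG (core of the NRF1 site) and AAGATGGC (core of the YY1 site). These lie at chr17:12916092-12916341 (minus strand), chr5:100798509-100798758 (plus), chr7:78782881-78783130 (plus) and chr11:97041332-97041581 (plus).
Mrpl18: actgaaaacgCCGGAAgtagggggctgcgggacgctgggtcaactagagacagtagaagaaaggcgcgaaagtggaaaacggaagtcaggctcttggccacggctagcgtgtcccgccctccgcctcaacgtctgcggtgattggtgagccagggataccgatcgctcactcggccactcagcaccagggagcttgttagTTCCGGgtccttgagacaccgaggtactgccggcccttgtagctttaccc
Mrps18c: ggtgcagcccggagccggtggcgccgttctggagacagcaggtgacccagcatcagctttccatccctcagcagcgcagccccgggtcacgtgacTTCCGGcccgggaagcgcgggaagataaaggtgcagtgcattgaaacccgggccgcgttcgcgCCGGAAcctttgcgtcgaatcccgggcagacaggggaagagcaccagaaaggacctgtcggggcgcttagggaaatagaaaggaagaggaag
Mrps11: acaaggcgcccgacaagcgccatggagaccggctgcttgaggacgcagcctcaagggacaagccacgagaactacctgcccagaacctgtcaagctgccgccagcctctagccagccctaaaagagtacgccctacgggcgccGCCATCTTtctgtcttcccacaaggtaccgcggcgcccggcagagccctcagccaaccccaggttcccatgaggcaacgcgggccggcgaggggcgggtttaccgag
Mrpl10: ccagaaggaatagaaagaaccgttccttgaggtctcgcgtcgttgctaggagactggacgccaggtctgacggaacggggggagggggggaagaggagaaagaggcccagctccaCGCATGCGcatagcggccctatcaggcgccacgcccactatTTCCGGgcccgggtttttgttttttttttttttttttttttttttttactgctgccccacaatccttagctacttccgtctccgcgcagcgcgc

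CCGGAA stood in the Mrpl18 run from 240 to 235 bases before the start, and on the reverse strand from 50 to 45. In Mrps18c it stood from 92 to 87 and, reversed, from 155 to 150 bases before the start. Mrps11 held AAGATGGC reversed, from 107 to 100 bases before the start. The Mrpl10 run held CCGGAA reversed, from 94 to 89, and GCATGCG on both strands in overlapping letters, from 135 to 128 bases before the start. A run of letters is a description only, and binding was not measured.

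RefSeq windows of 250 bases before to 50 after the start were found for 69 of the 78 genes, 75 windows in all. The other 9 are Mrps28, Mrps34, Mrps35, Mrpl4, Mrpl13, Mrpl15, Mrpl19, Mrpl38 and Mrpl54. CCGGAA was in 57.3% of the genes' windows, against 24.2% of the 14595 windows of genes tested and 14.9% of all 32851 windows. AAGATGGC was in 16.0%, against 3.88% and 2.75%, and GCATGCG in 10.7%, against 5.71% and 3.58%. By contrast GGGCGG, the core of SP sites, was in 52.0%, against 58.9% and 35.7%, CACGTG, the E-box, in 9.33%, against 9.32% and 7.15%, and TATAAA in 6.67%, against 7.92% and 13.6%. All letters were sought on both strands; CCGGAA was in 59.3% of Mrps and 56.2% of Mrpl windows. In imiquimod-dorsal spleens 37 of 40 genes with CCGGAA rose, with a median of 0.64, and 26 of 29 without it rose, with a median of 0.59.

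Many of these genes start close to another gene on the opposite strand. A protein-coding start on the opposite strand lay within 1000 bases in 27 of 78 (34.6%), against 12.1% of the 14813 protein-coding genes tested, and in 7 of 29 Mrps and 20 of 49 Mrpl genes. The starts of Mrps11 and Mrpl46 are 30 bases apart, and both rose in imiquimod-dorsal spleens, by 0.93 ± 0.11 and 0.60 ± 0.12 (adjusted p = 6.39e-04 for Mrpl46). Of the 24 neighbours tested 12 rose and 5 fell, with a median of 0.12, while 24 of the 27 members with a neighbour rose, with a median of 0.62. The neighbour's start could lie on either side, so some pairs share exon bases that the reads cannot separate, among them Mrpl57 and Ska3 (112 bases). Ncapd2, encoding a condensin subunit, and Ska3, a kinetochore gene, opposite Mrpl51 and Mrpl57, had log2 fold changes of 2.40 and 2.54. Mitd1, opposite Mrpl30, had -1.31 (adjusted p = 1.99e-05). These 3 neighbours were chosen after their values were seen.

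In imiquimod-ear against control spleens, 50 of the 78 genes rose and none fell, where 14.3% of all genes rose and 6.98% fell. They comprised 17 of 29 Mrps and 33 of 49 Mrpl genes, and by place 15 of 26 small-subunit and 34 of 51 large-subunit genes. The median log2 fold change was 0.36 over the 78, 0.33 for the Mrps and 0.38 for the Mrpl genes, against 0.02 over all genes. All 78 values were above 0 and none reached 2-fold. In 32 of the 78, every imiquimod-ear library lay above every control library, as in 13.5% of all genes. Of the 50, 48 also rose in imiquimod-dorsal spleens, a comparison that shares the same 3 controls. The other 2 were Mrpl10 (0.21 ± 0.07, adjusted p = 0.0398) and Mrps27 (0.37 ± 0.11, adjusted p = 0.0270). Neither call held throughout: that of Mrpl10 was lost under each of the other edgeR scalings (adjusted p = 0.0649 to 0.245) and without imiquimod-ear 1, 3 or 4 or control 2 or 4 (0.0686 to 0.299), and that of Mrps27 with library totals (0.0699) and without imiquimod-ear 1 or 3 or any 1 control (0.0507 to 0.125).

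This count depended on which libraries were kept. Left out 1 at a time, it was 9 without control 4, 11 without control 2, 23 without imiquimod-ear 1 and likewise without imiquimod-ear 3, 32 without imiquimod-ear 4, 53 without control 5 and 61 without imiquimod-ear 5. It was 10 with only the 2 groups in the fit, 25 with the gene length trend removed and 30 with library totals. The number of higher genes among all those tested moved as well, from 2161 in the main fit. It was 698 without control 4, 817 without control 2, 2102 without control 5 and 2723 without imiquimod-ear 5. With only the 2 groups it was 716, with the length trend removed 1578 and with library totals 1439. The median of the 78 genes was 0.30 without control 4 and 0.26 without control 2.

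Mrps12, encoding the universal protein at the decoding centre, had the largest rise of the small subunit. It was at 20.1, 20.4, 22.4 and 24.4 CPM in imiquimod-dorsal, 21.2, 24.5, 20.8 and 17.7 CPM in imiquimod-ear, 15.2, 16.3 and 21.7 CPM in IL-23-ear, and 13.5, 12.0 and 15.8 CPM in control libraries. Both imiquimod groups lay above the controls and overlapped each other. The log2 fold change was 0.61 ± 0.15 (adjusted p = 0.0112) in imiquimod-ear and 0.66 ± 0.15 (adjusted p = 0.00141) in imiquimod-dorsal against control spleens; without control 2 or 4 the imiquimod-ear p was 0.0589 or 0.0795.

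Mrps21 and Mrpl13 kept their calls whichever library was left out. Mrps21, with a bacterial counterpart, was at 44.1, 45.7, 44.6 and 42.0 CPM in imiquimod-dorsal, 43.4, 43.9, 39.3 and 33.7 CPM in imiquimod-ear, 35.1, 37.0 and 31.9 CPM in IL-23-ear, and 28.2, 25.9 and 29.0 CPM in control libraries. All 3 treated groups lay above the controls, and imiquimod-ear had a log2 fold change of 0.53 ± 0.09 (adjusted p = 0.00348; with the length trend removed, 0.22 with an adjusted p of 0.156). Mrpl13, a universal large-subunit gene, was at 54.3, 57.2, 59.9 and 59.6 CPM in imiquimod-dorsal, 57.6, 65.9, 58.0 and 41.2 CPM in imiquimod-ear, 34.6, 41.3 and 42.6 CPM in IL-23-ear, and 33.7, 33.5 and 38.1 CPM in control libraries. It was thus as high in 3 imiquimod-ear libraries as in the imiquimod-dorsal ones (0.67 ± 0.13 against control, adjusted p = 0.00478). Exons of Mtbp, which rose by 0.69 in imiquimod-ear spleens, overlap those of Mrpl13 by 367 bases.

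The other genes with the largest imiquimod-ear rises lost their calls when a control was left out. Mrpl18 had a log2 fold change of 0.73 ± 0.16 (adjusted p = 0.00718; 0.0536 without control 4). Mrpl34 had 0.67 ± 0.15 (adjusted p = 0.00793; 0.0564 without control 2), and Mrpl16, a universal large-subunit gene, 0.64 ± 0.14 (adjusted p = 0.00842; 0.0563 without control 2). Mrpl20 had 0.64 ± 0.14 (adjusted p = 0.00754; 0.0536 and 0.0525 without control 2 and 4). In the small subunit, Mrps22 had 0.57 ± 0.17 (adjusted p = 0.0266), Mrps7, a universal protein of the head, 0.53 ± 0.13 (adjusted p = 0.0122), and Mrps14, again universal, 0.46 ± 0.10 (adjusted p = 0.00737). Their adjusted p without control 4 was 0.110, 0.0789 and 0.0516. Mrpl12 (0.56 ± 0.14), Mrps36 (0.44 ± 0.12), Mrpl11 (0.41 ± 0.12), Mrps18c (0.37 ± 0.10) and Mrps30 (0.35 ± 0.10) also passed, at adjusted p of 0.0155 to 0.0290, and none of these 5 passed without control 2 or without control 4. Mrps2, Mrps6, Mrps18a, Mrps18b, Mrpl55 and Mrpl58 did not pass, with log2 fold changes of 0.17 to 0.29.

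In IL-23-ear against control spleens, edgeR called none of the 78 genes higher and none lower, where 0.0462% of all genes rose and 0.00660% fell. At an unadjusted p under 0.05 there were 16 of the 78, against 1305 of 15159 genes. DESeq2 called 1, Mrpl24 (log2 fold change 0.25, adjusted p = 0.0132), and limma-voom called 0. Of all 15159 genes, DESeq2 called 108 higher and 24 lower, and limma-voom 13 higher and 1 lower. Most values were nonetheless above 0, 75 of 78, with a median of 0.17, 0.11 for the Mrps and 0.18 for the Mrpl genes, against 0.01 over all genes. In 18 of the 78 every IL-23-ear library lay above every control library, as in 9.75% of all genes. Mrps18c was in this set, with a log2 fold change of 0.34 ± 0.10 (adjusted p = 0.346), as was Mrps21 (0.32 ± 0.10, adjusted p = 0.352). The median standard error of the 78 genes was 0.12 here.

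Directly compared, imiquimod-ear spleens had lower levels than imiquimod-dorsal spleens in 36 of the 78 genes and a higher one in 1, where 24.5% of all genes fell and 23.3% rose. The median log2 difference was -0.23. Scaling set much of this split: 19 were lower and 5 higher with upper-quartile scaling, and 10 lower and 9 higher with library totals. Of all 15159 genes, 2578 were lower and 5485 higher with upper-quartile scaling, and 2164 lower and 6513 higher with library totals. The median of all genes stood at 0.18 and 0.26 under these scalings, against 0.02 with TMM. Measured against that median, the 78 genes were at -0.26 under all 3 scalings. That value is nearly fixed, because scaling shifts all genes of a library alike. Without imiquimod-ear 5, 22 of the 78 were lower and 3 higher, where 3234 of all 15113 genes were lower and 3233 higher.

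The largest falls in imiquimod-ear against imiquimod-dorsal spleens were those of Mrps36 (-0.66 ± 0.11, adjusted p = 3.84e-04), Mrpl53 (-0.66 ± 0.11, adjusted p = 3.60e-04), Mrps18c (-0.65 ± 0.09, adjusted p = 5.40e-05) and Mrpl28 (-0.63 ± 0.11, adjusted p = 5.69e-04). The libraries of the 2 groups did not overlap in any of the 4. Mrpl24 was the one higher gene, at 0.16 ± 0.06 (adjusted p = 0.0269), and its call was lost without imiquimod-dorsal 2, 3 or 4 or imiquimod-ear 4 (adjusted p = 0.0523 to 0.0885).

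IL-23-ear spleens were lower than imiquimod-ear spleens in 10 of the 78 genes and higher in 0, where 10.2% of all genes fell and 7.05% rose. That share is near the share of all genes, and the median was -0.21 against -0.02. The 10 were Mrps14 and the large-subunit genes Mrpl13, Mrpl16, Mrpl18, Mrpl20, Mrpl22, Mrpl36, Mrpl37, Mrpl51 and Mrpl57. Mrpl18 had a log2 difference of -0.53 ± 0.16 (adjusted p = 0.0330), Mrpl13 one of -0.49 ± 0.13 (adjusted p = 0.0200) and Mrps14 one of -0.35 ± 0.10 (adjusted p = 0.0307). In each of the 3, imiquimod-ear 5 lay below at least 1 IL-23-ear library. The count was 0 without imiquimod-ear 1, without imiquimod-ear 3 or without IL-23-ear 1, 1 without imiquimod-ear 4 or IL-23-ear 3, 3 without IL-23-ear 2, and 32 without imiquimod-ear 5. With only the 2 groups in the fit it was 0. Lower genes among all those tested moved as well, from 1553 in the main fit. They numbered 823 without imiquimod-ear 1, 974 without imiquimod-ear 3, 688 without IL-23-ear 1 and 2403 without imiquimod-ear 5. With only the 2 groups in the fit they numbered 704. At an unadjusted p under 0.05 there were 33 of the 78, a count not set against a share of all genes.

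Between IL-23-ear and imiquimod-dorsal spleens, 57 of the 78 were lower and 2 higher, where 30.0% of all genes fell and 27.1% rose, with a median of -0.45. With library totals 26 were lower and 6 higher, where 2881 of all 15159 genes were lower and 6752 higher. Mrpl20 (-1.03 ± 0.14, adjusted p = 2.95e-05), Mrpl18 (-1.02 ± 0.16, adjusted p = 9.18e-05) and Mrps22 (-0.91 ± 0.17, adjusted p = 3.47e-04) were among the largest falls, and Mrps28 fell by 1.00 ± 0.15 (adjusted p = 8.44e-05). The 2 higher genes were Mrpl24 (0.32 ± 0.06, adjusted p = 4.59e-04) and Mrps6 (0.53 ± 0.16, adjusted p = 0.0101). Mrps6 was at 18.0, 18.1 and 29.2 CPM in IL-23-ear libraries, so IL-23-ear 3 stood apart, and without it the difference was 0.30 (adjusted p = 0.0551).

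Mrps and Mrpl genes were then set against each other within each library, with no test. The summed CPM of the Mrps over the Mrpl genes was 0.519 ± 0.008 in imiquimod-dorsal, 0.527 ± 0.014 in imiquimod-ear, 0.541 ± 0.012 in IL-23-ear and 0.544 ± 0.005 in control spleens (SD, n = 4, 4, 3 and 3). The mean log2 change of the Mrps genes relative to control, minus that of the Mrpl genes, was -0.055, -0.100, -0.097 and -0.082 in imiquimod-dorsal, -0.070, -0.053, -0.099 and -0.017 in imiquimod-ear, 0.008, -0.038 and -0.016 in IL-23-ear, and 0.020, -0.006 and -0.014 in control libraries. In this log2 measure the imiquimod-dorsal and imiquimod-ear libraries all lay below all 3 controls, imiquimod-ear 5 narrowly, whereas IL-23-ear overlapped them. In the ratio of sums imiquimod-ear 5, at 0.546, lay within the control range of 0.540 to 0.550. The group mean of -0.083 in imiquimod-dorsal spleens is small beside the change of either set, 0.567 ± 0.054 for the Mrps and 0.651 ± 0.074 for the Mrpl genes. By place, the small minus the large subunit was at -0.093. With the median over genes in place of the mean the Mrps minus Mrpl value was -0.106.

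**Figure D4:**
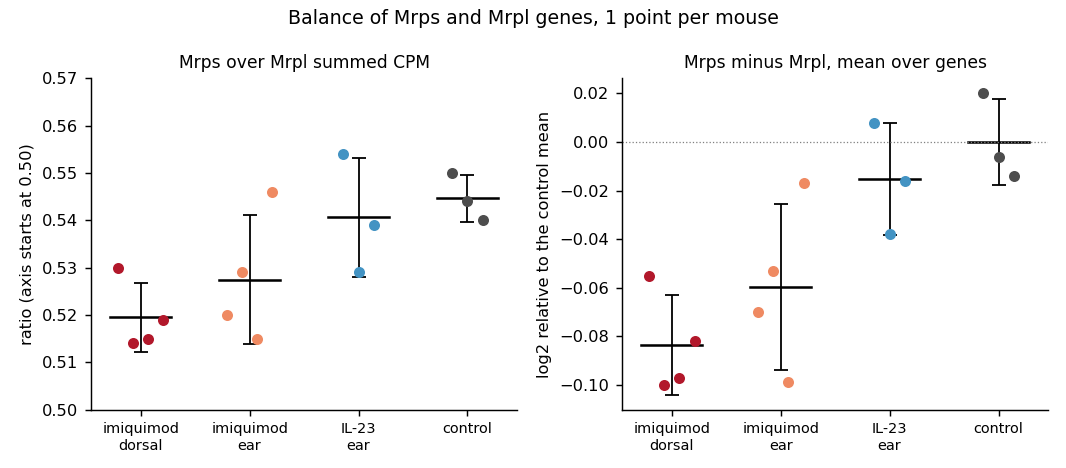
Mrps over Mrpl summed CPM (left, axis from 0.50) and Mrps minus Mrpl mean log2 change relative to the control mean (right), with 1 point per library and the group mean ± SD. On the right, the 4 imiquimod-dorsal values lie between -0.100 and -0.055 and the 3 controls between -0.014 and 0.020.

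Per kilobase of transcript, the level of these genes ranged widely. The median was 22.5 CPM per kilobase for Mrps and 24.4 for Mrpl genes in imiquimod-dorsal, 18.7 and 21.3 in imiquimod-ear, 15.0 and 19.3 in IL-23-ear, and 13.9 and 16.3 in control spleens. Mrps21 was the highest of the Mrps genes, with a level of 79.5 CPM per kilobase in imiquimod-dorsal, 72.2 in imiquimod-ear, 62.5 in IL-23-ear and 49.9 in control spleens. Mrps2, a universal gene, was the lowest by its mean over libraries, with levels of 6.33, 5.78, 5.14 and 4.82 CPM per kilobase in the same order. Of the Mrpl genes, Mrpl20 was the highest by that mean, with levels of 81.5, 54.8, 39.9 and 35.2 CPM per kilobase, and Mrpl55, with a bacterial counterpart, the lowest, with 4.43, 3.12, 2.79 and 2.62. In imiquimod-dorsal against control spleens, Mrps2 had a log2 fold change of 0.39 ± 0.11 (adjusted p = 0.00857; 0.0962 without control 2) and Mrpl55 one of 0.76 ± 0.14 (adjusted p = 3.50e-04). Transcript lengths are those of the Ensembl canonical transcript.

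The remaining mitoribosomal proteins, and the genes that assemble and serve the mitoribosome, were counted in the same way. For these and the lists after them, the shares over all genes were 32.3% higher and 27.6% lower in imiquimod-dorsal spleens. They were 14.3% and 6.98% in imiquimod-ear and 0.0462% and 0.00660% in IL-23-ear spleens. With library totals, 2748 of 15159 genes were higher and 7242 lower in imiquimod-dorsal spleens. Of 5 mitoribosomal protein genes with other names, 5 rose in imiquimod-dorsal against control spleens (median 0.65 on the log2 scale) and 3 in imiquimod-ear (median 0.37). Among them, Dap3, a GTP-binding small-subunit protein, was at 85.8, 91.7, 91.5 and 88.4 CPM in imiquimod-dorsal and 54.8, 57.5 and 62.8 CPM in control libraries (0.61 ± 0.07, adjusted p = 1.27e-05). Of 28 assembly and rRNA modification genes, 14 rose and 5 fell in imiquimod-dorsal spleens, with a median of 0.30. Tfb1m, which methylates the small-subunit rRNA, had 0.98, and Mettl17, a small-subunit assembly factor, had -0.61, with 20.7 ± 1.81 CPM in imiquimod-dorsal and 31.6 ± 1.85 CPM in control spleens. Of 17 translation factors 10 rose and 1 fell, with a median of 0.31; Gfm1, the elongation factor that moves the ribosome along, had 0.81 (adjusted p = 9.81e-05). Of 20 tRNA charging genes 9 rose and 2 fell, with a median of 0.19, and of 10 genes of mitochondrial DNA transcription and replication 2 rose and 1 fell, with a median of 0.08. With library totals the counts in imiquimod-dorsal spleens were 6 higher and 8 lower, 2 and 3, 3 and 8, and 0 and 5 for these 4 lists in turn. In imiquimod-ear spleens the counts of these 4 lists were 3 higher and 1 lower, 4 higher, 1 higher and 0, and in IL-23-ear spleens edgeR called none of them, with 2, 1, 1 and 0 at an unadjusted p under 0.05.

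The 13 proteins that the mitoribosome makes are encoded in mitochondrial DNA, and their RNAs followed another order of groups. In imiquimod-dorsal spleens 5 rose and 1 fell, with a median of 0.12; in imiquimod-ear 7 rose, with 0.19; in IL-23-ear 4 rose, with 0.33. The direction in imiquimod-dorsal spleens turned with scaling, to 4 lower and 0 higher with upper-quartile scaling and 9 lower and 0 higher with library totals, and the 7 in imiquimod-ear became 1 under either. The 4 calls in IL-23-ear spleens were all lost with RLE, upper-quartile or library-total scaling and without any 1 library of either group, whereas limma-voom called 5 and DESeq2 10. Of all 15159 genes in IL-23-ear spleens, limma-voom called 13 higher and 1 lower, and DESeq2 108 higher and 24 lower. The summed level of the 13 mitochondrially encoded genes was 27261 to 30061 CPM in imiquimod-dorsal, 28722 to 31297 in imiquimod-ear, 33266 to 33500 in IL-23-ear and 25004 to 27800 in control libraries, so the IL-23-ear libraries were the highest. mt-Co3, a subunit of cytochrome c oxidase, averaged 1981 ± 44.5 CPM in imiquimod-dorsal, 2072 ± 80.9 in imiquimod-ear, 2250 ± 38.6 in IL-23-ear and 1752 ± 65.8 in control spleens. By contrast, the 84 nuclear genes of the respiratory chain had medians of 0.78, 0.48 and 0.19 in the same group order, with 79, 72 and 0 higher by edgeR and none lower; in IL-23-ear spleens 26 had an unadjusted p under 0.05. The 81 cytosolic ribosomal protein genes had medians of 0.30, 0.32 and 0.29, with 67 higher and 1 lower, 68 higher, and 3 higher. With library totals 8 of them were higher and 16 lower in imiquimod-dorsal spleens and 52 higher in imiquimod-ear, and the 3 calls in IL-23-ear spleens were lost under the same settings as those of the mitochondrially encoded genes, where limma-voom called 8 and DESeq2 44. Of 10 regulators of mitochondrial biogenesis, 5 rose and 2 fell in imiquimod-dorsal spleens, where 32.3% of all genes rose and 27.6% fell. Nrf1 (0.88 ± 0.10, adjusted p = 5.85e-06) and Gabpb1, a subunit of the ETS-type factor GABP (0.60 ± 0.07, adjusted p = 6.44e-06), were among those that rose. These 2 are named because they had the smallest p of the list, and their part in the other results was not tested.

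**Figure D5:**
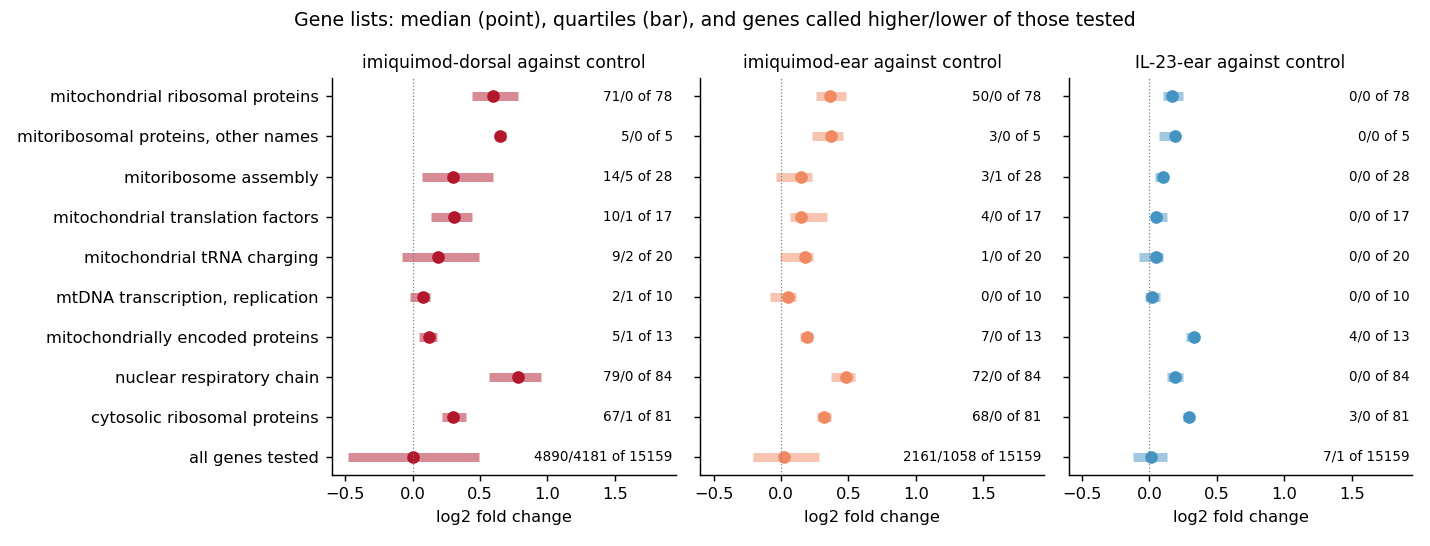
Median log2 fold change against control of each gene list, with 1 panel per treated group; points are medians over the genes tested, bars the quartiles, and the numbers count genes higher and lower of those tested. The 78 genes stand at 0.60, 0.36 and 0.17 from the imiquimod-dorsal to the IL-23-ear panel, and the mitochondrially encoded genes at 0.12 (-0.22 with library totals), 0.19 and 0.33.

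Markers of cell types moved with the groups, and their part in these results was not tested. Beside the erythroid and cell cycle sums given above, all 12 erythroid markers rose in imiquimod-dorsal spleens (median 4.19) and edgeR called none in imiquimod-ear (0.90, with 1 at an unadjusted p under 0.05), whereas all 12 cell cycle genes rose in both (2.82 and 1.69). The 10 neutrophil markers summed to 1308 to 2324 CPM in imiquimod-dorsal, 188 to 765 in imiquimod-ear, 104 to 460 in IL-23-ear and 82.4 to 156 in control libraries. T cell markers, 9 in all, summed to 213 to 263, 619 to 1049, 1190 to 1345 and 813 to 1154 CPM, and the 8 plasma cell markers to 971 to 1521, 3131 to 4712, 1293 to 1696 and 1251 to 1512 CPM, in the same order. Red pulp macrophage markers summed to 1024 to 1406, 952 to 1466, 1351 to 1469 and 1297 to 1572 CPM. Pancreas markers reached 397 CPM in 1 imiquimod-dorsal library, and adipose markers 27.6 CPM in 1 control library. Within groups, imiquimod-ear 5 was low and control 5 high for both the mitoribosomal and the cell cycle genes: their cell cycle sums were 1255 CPM, against 2614 to 3203 in the other imiquimod-ear libraries, and 1308 CPM, against 700 and 804 in the other controls. The IL-23-ear libraries also had the same order in both. Imiquimod-dorsal 3 was the highest of its group in both, but imiquimod-dorsal 2 had the lowest mitoribosomal sum (3169 CPM) with 6343 CPM for the cell cycle. Imiquimod-dorsal 5 had the lowest cell cycle sum (5977 CPM) with 3429 CPM for the mitoribosomal genes. Other lists varied within groups as well. T cell markers ran the other way, with 1049 CPM in imiquimod-ear 5, the highest of its group, and 813 CPM in control 5, the lowest. The cytosolic ribosomal protein genes summed to 58698 CPM in imiquimod-ear 5, the lowest of its group, and 53130 CPM in control 5, the highest. None of these relations was tested.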

How the data were processed

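Counts per gene in 14 libraries were analysed as deposited: the authors' table holds raw read counts, as its whole numbers show. Libraries were non-stranded poly(A) preparations read from both ends with 150 bases, per the labels' protocols. The tools named, per the submitters' processing notes and with no role stated, are featureCounts 2.0.3, HISAT2 2.2.1, fastp 0.23.2, StringTie 2.2.1 and DESeq2 1.38.3, with the build GRCm39. The annotation for counting is not given in the sources used here. How reads with several matches were counted is unknown, so shared exon bases may be counted either way. The 624 unnamed entries, 0.4835% to 0.674% of counts, were left out.

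Genes were tested with edgeR 4.0.16 (R 4.3.3) (quasi-likelihood F test, robust option), TMM scaling, filterByExpr at a minimum count of 10 (15159 genes), all 14 libraries in 1 fit (10 residual degrees of freedom, biological coefficient of variation 18.7%) and Benjamini-Hochberg adjustment over all genes at 0.05; every adjusted p is from it unless another tool is named. "Rose" and "fell" mean passing this threshold. Errors of log2 fold changes are SE, and levels are TMM-scaled CPM. The test was run on simulated data first. The 18 replicate pairs differed by more than sampling noise (chi-square per degree of freedom 24.1 to 142). Coordinates and lengths are from GENCODE mouse release 39, which held 22101 of the 22116 named entries.

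For each treated group against control, the named genes are the 5 largest changes among the Mrps and among the Mrpl genes that passed; between treated groups, the 2 largest; and a set of genes named whatever their result. The genes, lists and tests were chosen with earlier results of these data known. Alternatives were RLE, upper-quartile and total scaling, TMM without haemoglobin and immunoglobulin genes, DESeq2 1.42.0, limma-voom (limma 3.58.1), no filter, only the groups compared, the replicate number as a block, removal of the gene length trend, and leaving out each library.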

Additional observations from a re-analysis of the deposited data

Results flagged for a closer look

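In groups of 4, a library was singled out where its gap to the nearest other library took up more of the group's range than Dixon's critical value at 95%; over 64 such checks of named genes, about 1 in 20 would be singled out by chance. In imiquimod-ear spleens, replicate 5 was far below the others in 4 genes. Mrpl28 was at 33.7 CPM there against 47.3 to 48.6 CPM in the others, Mrpl55 at 8.88 against 12.7 to 13.2 CPM, Mrps18b at 25.1 against 35.2 to 35.9 CPM and Mrps36 at 17.7 against 24.8 to 25.1 CPM. Without it, Mrps18b and Mrpl55 passed against control (log2 fold change 0.36 and 0.33, adjusted p = 0.0287 and 0.0335). In imiquimod-dorsal spleens, Mrpl12 was low in replicate 2, at 82.0 CPM against 88.9 to 90.2 CPM, and Mrps28 high in replicate 4, at 34.4 CPM against 30.5 to 31.0 CPM. The cause was not tested.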

How the results depend on the processing

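For imiquimod-dorsal against control the count of higher genes (71) was 57 with upper-quartile scaling, 64 with the replicate block and 43 with library totals, and left-out libraries gave 63 to 71; lower genes were 1 with upper-quartile scaling (Mrpl24) and 2 with totals. For imiquimod-ear against control, the 50 higher genes became 30 with totals, 10 with only the groups compared, 25 with the length trend removed and 9 to 61 with a library left out. Higher genes among all those tested (2161) became 1439, 716, 1578 and 698 to 2723 in that order. For IL-23-ear against control DESeq2 called 1. For imiquimod-ear against imiquimod-dorsal, higher genes (1) were 5 with upper-quartile scaling, 9 with totals and 0 to 3 with a library left out, and lower genes (36) were 19, 10 and 22 to 35. Among all genes, the first 2 settings gave 5485 and 6513 higher, and 2578 and 2164 lower. For IL-23-ear against imiquimod-ear, higher genes (0) were 1 with upper-quartile scaling, 2 with DESeq2 and 1 with the length trend removed, and lower genes (10) were 0 with only the groups compared and 0 to 32 with a library left out. Lower genes among all those tested (1553) were 704 with only the groups compared and 631 to 2403 with a library left out. For IL-23-ear against imiquimod-dorsal, higher genes (2) were 4 with upper-quartile scaling, 6 with totals and 1 to 2 with a library left out, and lower genes (57) were 26 with totals. Totals gave 6752 higher and 2881 lower among all genes. The Mrps minus Mrpl value in imiquimod-dorsal spleens was -0.106 with the median over genes.

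Signs turned in imiquimod-dorsal against control for Mrpl10 (-0.14 upper-quartile, -0.25 totals, -0.02 length trend, -0.03 without control 2), Mrpl58 (-0.09 totals), Mrps27 (-0.05 upper-quartile, -0.16 totals) and Mrps6 (-0.18 upper-quartile, -0.28 totals, -0.00 without the filter, -0.15 length trend, -0.02 and -0.09 without control 2 and 4 and up to 0.11 with another library left out), and in imiquimod-ear against control for Mrps6 (-0.00 length trend). Over the named genes and alternatives, 862 values kept direction and side of the threshold, 147 lost and 2 gained the call, and 14 changed sign. The causes were not tested.

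No pairing by replicate number was seen: same-numbered libraries correlated at -0.366 to 0.242 in their deviations, 1 of 13 pairs above 0.1. With so few libraries per group, these correlations cannot exclude a pairing. With the replicate number as a block, higher genes against control were 64 in imiquimod-dorsal, 0 in imiquimod-ear and 0 in IL-23-ear spleens. Among all 15159 genes, 4438, 240 and 0 were higher in that order, against 4890, 2161 and 7 without the block. For imiquimod-ear against imiquimod-dorsal 0 of the 78 were higher and 24 lower. For IL-23-ear against imiquimod-ear these counts were 0 and 0, and for IL-23-ear against imiquimod-dorsal 2 and 49.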
